A study of Homo sapiens with 12 samples.

Results

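The messenger RNAs of the Argonaute proteins and of Dicer were examined as targets of AGO2 itself. All AGO2-bound regions were taken that overlap the RefSeq span of AGO1, AGO2, AGO3, AGO4 or DICER1 on the strand of the gene. These 5 genes held 12 of the 2921 regions bound by the mutant FH-AGO2 5xA and 8 of the 1190 regions bound by wild-type FH-AGO2. DICER1, AGO2 and AGO4 held a region in both lists, as did 2.99% of all protein-coding genes, and AGO1 and AGO3 held none in either. The AGO4 regions were under 100 bases wide and were lost when a width of at least 100 bases was required.

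The regions come from eCLIP, in which ultraviolet light crosslinks RNA to protein, the protein is immunoprecipitated (IP) and the bound fragments are sequenced. HCT116, an established cell line from a human colorectal carcinoma, was grown for 48 h before a dose of 400 mJ/cm2, and anti-FLAG antibody was used for all IPs. The series holds 12 samples in 6 groups of 2, an IP and an input for FH-AGO2 5xA cells, for FH-AGO2 WT cells and for AGO2 knockout cells. FH-AGO2 is AGO2 with a tag that the antibody recognises, and 5xA is the form in which residues of a phosphorylated cluster are replaced by alanine. The labels do not say how the tagged protein was supplied, whether its mRNA keeps the natural 3′ end, or whether the lines are single clones. Which AGO2 transcript gave the regions of that gene is therefore not given. The design asked which RNA each form of AGO2 binds. The 2 lists compared here each merge both IP replicates of a genotype, so no replicate error can be given, the read depth behind a region is unknown, and no value below carries a test of the genotypes. The other 8 samples were not analysed here.

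Argonaute proteins carry miRNAs to partly complementary sites, mostly in the 3′ untranslated regions of mRNAs, and recruit the machinery that represses them. DICER1 encodes the nuclease that cuts miRNA precursors to their mature length, so every miRNA that AGO2 loads by this route depends on it. AGO2 is the human Argonaute known for cleaving a fully matched target, while AGO1, AGO3 and AGO4 are close relatives that also take part in miRNA silencing. DICER1 mRNA is itself a known miRNA target. let-7 is known to act on it, in its coding sequence as well as its 3′ untranslated region, and miR-103 and miR-107 are known to act on its 3′ untranslated region, which forms a feedback on miRNA production.

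The mature sequences of these 3 known DICER1 regulators, from RefSeq on GRCh38.p14, are printed because they are known from other work to act on DICER1, and whether they guided AGO2 to the regions below was not tested. Capitals mark the seed, bases 2 to 8, and the sequences run 5′ to 3′.
let-7a-5p: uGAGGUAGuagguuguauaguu
miR-103a-3p: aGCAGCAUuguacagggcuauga
miR-107: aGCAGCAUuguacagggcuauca
miR-103a-3p and miR-107 share their seed and differ at 1 of 23 positions, position 22 from the 5′ end. The genes of let-7a were themselves in the lists. MIRLET7A1 on chromosome 9 held a region of 70 bases with 5xA and of 70 bases with WT, from 94175962 to 94176031 in both. MIRLET7A2 held a region of 68 bases with 5xA and 66 bases with WT, and MIRLET7A3 one of 66 bases with 5xA and 65 bases with WT. The 3 let-7a genes were thus in both lists at nearly identical coordinates. They give the same mature sequence, so reads of it alone cannot tell them apart, and they are not 3 separate observations. MIR103A1, MIR103A2 and MIR107 held 0 regions in either list. MIR103A1 and MIR103A2 also give the same mature sequence, so reads of it alone cannot tell them apart, and their absence is not read as a lack of binding. Of 15 genes of the 11 miRNAs examined, 5 held a region with 5xA and 5 with WT, the other ones being MIR16-1 and MIR21, beside 1.78% and 1.1% of all 1913 annotated miRNA genes. MIR16-1 and MIR16-2 also give the same mature sequence, and MIR16-2 held 0 regions in either list. The 11 miRNAs were picked by hand, and nothing is read from the difference. How the regions within DICER1 relate to matches of these seeds was not tested, since no sequence of the regions was used.

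DICER1 held the most regions of the 5 genes, 8 with 5xA and 4 with WT. Each of its 4 WT regions overlapped a 5xA region, which here takes 1 common base on that strand and is called shared, and 4 of its 8 5xA regions had no WT partner. The 5xA regions covered 1206 bases and the WT regions 665 bases, a ratio of 1.81, and 610 bases were in both. The WT regions were thus 91.7% contained in 5xA regions. The gene spans 95086228 to 95158010 of chromosome 14 on the minus strand (hg38), 71.8 kb, and the regions formed 4 groups in the 17.8 kb before its downstream end.

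Farthest from the 3′ end lay a pair of regions found with both forms. With 5xA they ran from 95103935 to 95104065 (131 bases) and from 95103599 to 95103852 (254 bases). With WT they ran from 95103895 to 95104052 (158 bases) and from 95103603 to 95103809 (207 bases). The members of the pair were 82 bases apart with 5xA and 85 bases apart with WT, and their midpoints lay 17.5 to 17.8 kb from the downstream gene end in both lists. The wider 5xA region contained its WT partner whole, and the other pair overlapped by 118 bases. This distal pair made up 31.9% of the DICER1 bases in the 5xA list and 54.9% in the WT list. No exon annotation was used, so it could not be placed in coding sequence, intron or untranslated region.

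The arrangement was set against other genes. Over 10 kb from the downstream end lay 13.7% of 2132 5xA regions and 12.8% of 842 WT regions in protein-coding genes longer than 10 kb. Of 435 such genes with a shared 5xA region, 11 (2.53%) held shared regions both within 5 kb and over 10 kb from the end, DICER1 among them. Of these, 2 genes held at least 2 shared regions in the far part, DICER1 and ANKRD33B, the second chosen after its values were seen. Both rules follow the layout of DICER1, which therefore meets them by construction, so these counts are description only. The whole series gives the scale for the far regions: 27.4% of 292 far 5xA regions and 72.2% of 108 far WT regions were shared.

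Between the distal pair and the last 5 kb of the gene, DICER1 held a single region, found with 5xA and not with WT. It ran from 95094021 to 95094132 (112 bases), 7.85 kb from the downstream end, and the nearest WT region on that strand was 4883 bases away.

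In the last 5 kb of DICER1 the 5xA regions extended farther upstream than the WT regions. With 5xA, 4 regions lay close together from 95088940 to 95089602, at 259, 166, 71 and 70 bases wide, and covered 566 of 663 bases. With WT a single region of 213 bases lay there, from 95088925 to 95089137, and it overlapped the 259-base 5xA region by 198 bases. The other 3 5xA regions lay 146, 313 and 395 bases upstream of that WT region, toward the 5′ side of the transcript. Gaps of 85, 1 and 11 bases separated the 4 5xA regions. Such spacing also occurred elsewhere, though in few pairs. In the 5xA list 98 of 2840 neighbouring pairs on a strand were at most 11 bases apart, and in the WT list 25 of 1120 were. Gaps of at most 50 bases made up 9.93% of pairs with 5xA and 8.84% with WT. The number of separate regions therefore depends on how they were merged: with regions within 50 bases joined, DICER1 held 6 with 5xA and 4 with WT.

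The DICER1 region nearest the 3′ end was shared. It ran from 95087539 to 95087681 (143 bases) with 5xA and from 95087554 to 95087640 (87 bases) with WT, and the WT region lay whole inside it. In all, 5 of 8 5xA regions and 2 of 4 WT regions of DICER1 were in the last 5 kb of the gene. RefSeq lists 5 start windows for DICER1, and the first region lay 29.4 kb downstream of the last of these starts, so all regions lie in the part of the span downstream of every listed start. MIR3173, a miRNA gene inside DICER1 on the same strand, held 0 regions in either list, and the nearest DICER1 region was 33853 bases away.

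**Figure D1:**
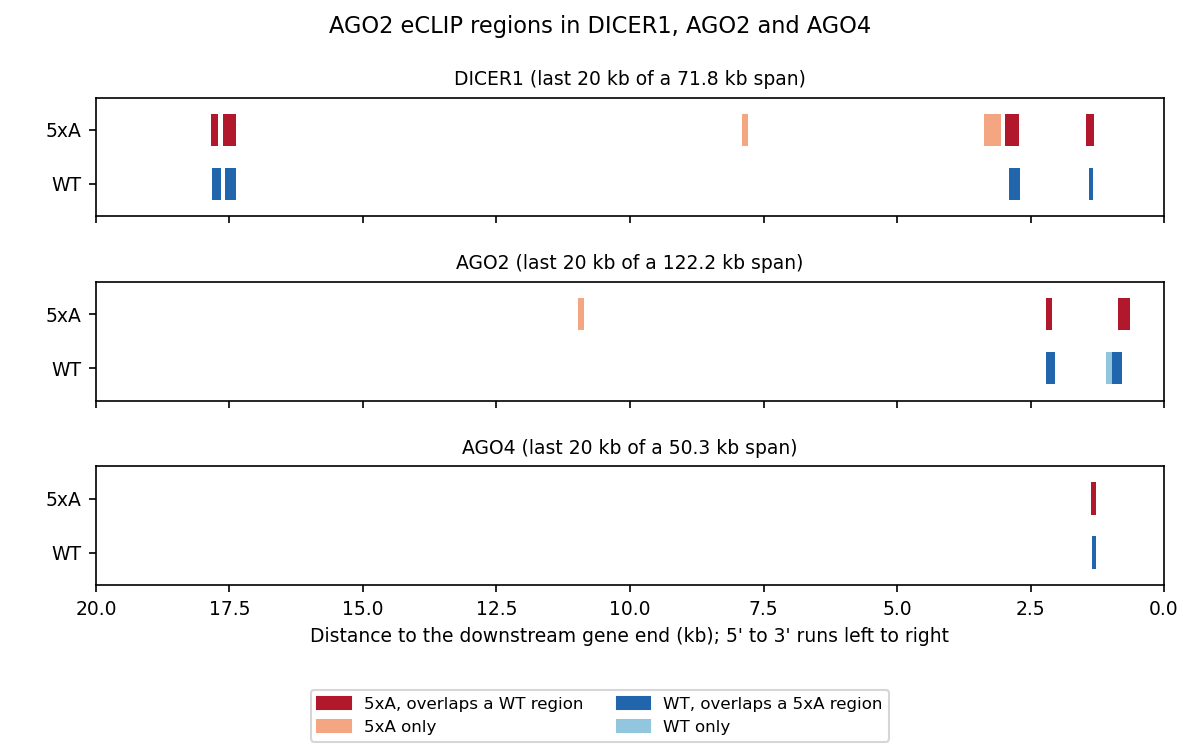
Positions of regions in the last 20 kb of DICER1, AGO2 and AGO4, plotted by distance to the downstream gene end in kb, with 5xA above WT in each panel and pale bars for regions without a partner in the other list. DICER1 has a distal pair in both lists at 17.5 to 17.8 kb, and its 5xA-only regions lie at 7.85 kb and beside the shared region at 2.84 kb; the 3 pale bars there are drawn nearly touching.

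The counts of DICER1 were set against all protein-coding genes. A region was found in 7.44% of 20056 annotated protein-coding genes with 5xA and in 3.35% with WT, a background that includes genes these cells may not express. Among the genes with a 5xA region, 1.68% held at least 8, and 18 genes held more than DICER1. Among the genes with a WT region, 6.1% held at least 4, and 29 genes held more than DICER1. The 5xA count was within the range of genes with as many WT regions. Of the 12 genes with 4 WT regions, DICER1 included, the 5xA number had a median of 5.5 and a range of 3 to 14, and 5 of the 12 held at least 8. A difference of at least 4 regions was found in 7% of the 600 genes in both lists. Over the whole lists, which include genes without a WT region, there were 2.45 times as many regions with 5xA.

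No other gene held the counts of DICER1, and 6 genes were 1 region away by Euclidean distance over the 2 lists. The 5 with covered bases in the 5xA list nearest to those of DICER1 were ZBTB7B (8 with 5xA and 3 with WT), MDM2 (8 and 5), RREB1 (8 and 5), KMT2D (9 and 4) and PKD1 (9 and 4). MDM2 encodes the ubiquitin ligase of p53, and KMT2D a histone methyltransferase. The sixth was GPRC5A (8 and 3), with 2029 covered bases in the 5xA list.

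AGO2 held 3 regions with 5xA and 3 with WT, which covered 463 and 441 bases. The equal counts hide different positions: 2 of the 3 in each list overlapped, and 186 bases were in both. Each list had 1 region the other lacked. The equal counts and the WT-only region depend on how regions were merged. With regions within 50 bases joined, AGO2 held 3 with 5xA and 2 with WT, and those 2 WT regions were shared. The gene spans 140520156 to 140642313 of chromosome 8 (122.2 kb) on the minus strand.

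The AGO2 regions that matched best ran from 140522246 to 140522369 (124 bases) with 5xA and from 140522206 to 140522363 (158 bases) with WT, and overlapped by 118 bases. Nearer the 3′ end the lists were offset. The 5xA region ran from 140520792 to 140521016 (225 bases), and the WT regions ran from 140520949 to 140521121 (173 bases) and from 140521132 to 140521241 (110 bases), 10 bases apart from each other. The 5xA region overlapped the nearer WT region by 68 bases and missed the farther by 115 bases. It reached 157 bases beyond the WT region toward the 3′ end and stopped 105 bases short of it on the 5′ side. With a reciprocal overlap of 50% required, this pair no longer counted as shared, which left 1 shared AGO2 region in each list.

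The remaining AGO2 region was found with 5xA only, from 140531016 to 140531129 (114 bases), 10.9 kb from the downstream end and 8652 bases from the nearest WT region. The other 2 5xA regions and all 3 WT regions lay within 2.15 kb of the end. With far taken as over 10 kb, AGO2 thus held a far region with 5xA only, where DICER1 held far regions with both forms. DICER1 also held a 5xA-only region under that limit, at 7.85 kb. A far 5xA region without a WT partner was the common case, since 27.4% of 292 far 5xA regions were shared.

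Among all protein-coding genes, 39 held 3 WT regions. In these the 5xA number had a median of 5 and quartiles of 3 and 6. AGO2, with 3, stood at the lower quartile, and 8 of the 39 genes held fewer with 5xA than with WT. Of the genes in both lists, 44.2% held as many 5xA as WT regions, as AGO2 and AGO4 did, all counted without joining. CDKN1B, the gene of a cyclin-dependent kinase inhibitor, and DUSP2, a phosphatase gene, held the same counts as AGO2. Of 42 genes that were 1 region away, ATXN7L3 (3 with 5xA and 2 with WT), SOX4 (3 and 2) and MYADM (4 and 3) were nearest to AGO2 in covered 5xA bases.

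AGO4 held 1 region in each list, and they were nearly the same. With 5xA it ran from 35856530 to 35856614 of chromosome 1 (85 bases) and with WT from 35856542 to 35856611 (70 bases), on the plus strand and 1.32 kb and 1.31 kb from the downstream end of a 50.3 kb gene. The WT region lay whole inside the 5xA region, which reached 12 bases farther on the 5′ side and 3 bases farther on the 3′ side. Both were narrower than their list medians of 104 bases for 5xA and 114 bases for WT, and with only regions of at least 100 bases AGO4 held 0 regions in either list.

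**Figure D2:**
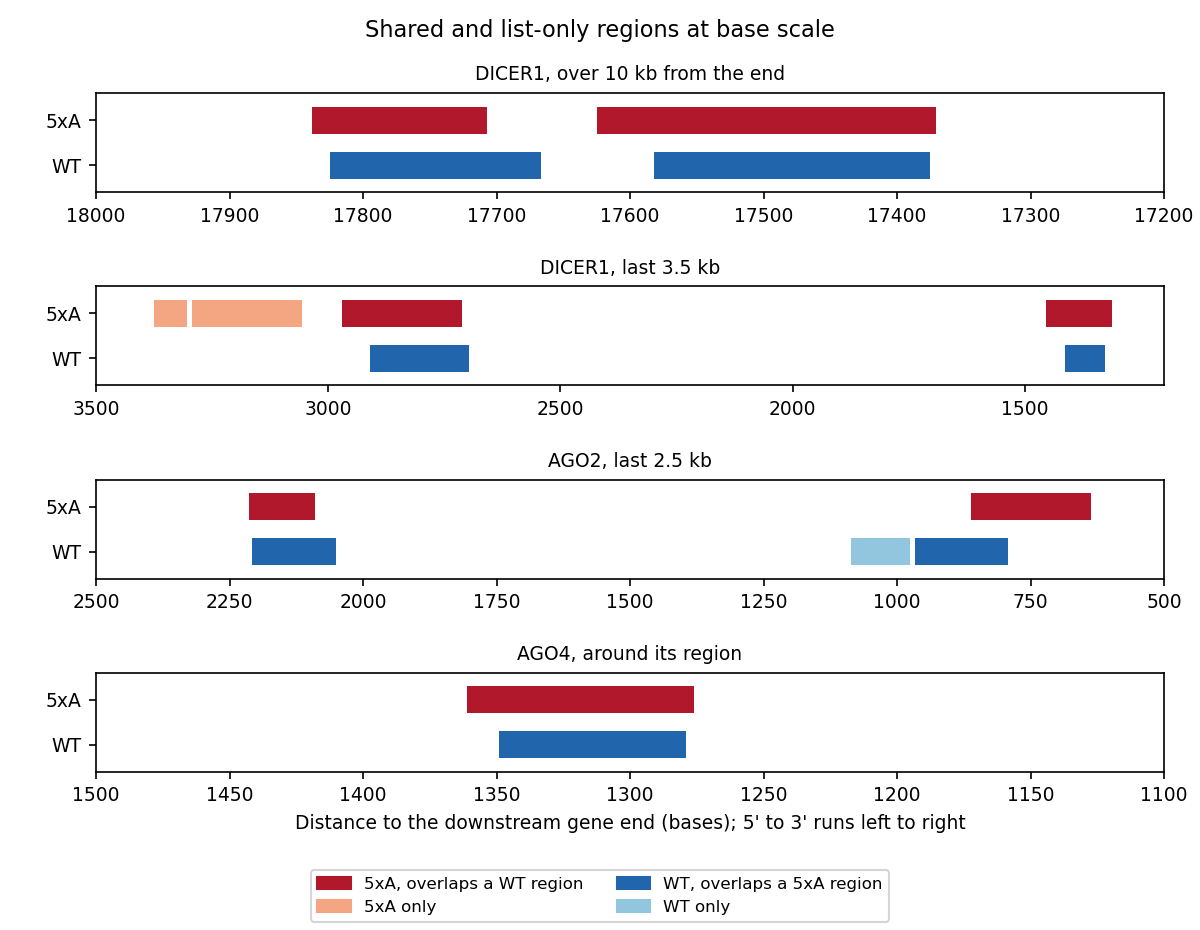
The same regions at base scale, plotted by distance to the downstream gene end in bases, with 5xA above WT and pale bars for regions without a partner in the other list. The AGO4 regions nearly coincide, the WT region of DICER1 near 2.8 kb is continued upstream by 5xA-only regions, and the AGO2 regions nearest the end overlap by 68 bases.

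AGO1 and AGO3 held 0 regions with 5xA and 0 with WT. They lie directly downstream of AGO4 on the same strand of chromosome 1. AGO1 spans 35869761 to 35930532 and AGO3 spans 35930718 to 36072500, with 185 bases between them and 11870 bases between AGO4 and AGO1. The AGO4 region was the only one in this 264.9 kb block of 3 Argonaute genes in either list, on either strand. Lack of a region was the common case for genes of this size. Of 3125 protein-coding genes with spans between those of AGO1 and AGO3, 9.06% held a region in either list, and 92.2% of all protein-coding genes held none. Levels of the 5 mRNAs were not measured here, so less mRNA and less binding per mRNA cannot be told apart, for the genes with regions as for those without.

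**Figure D3:**
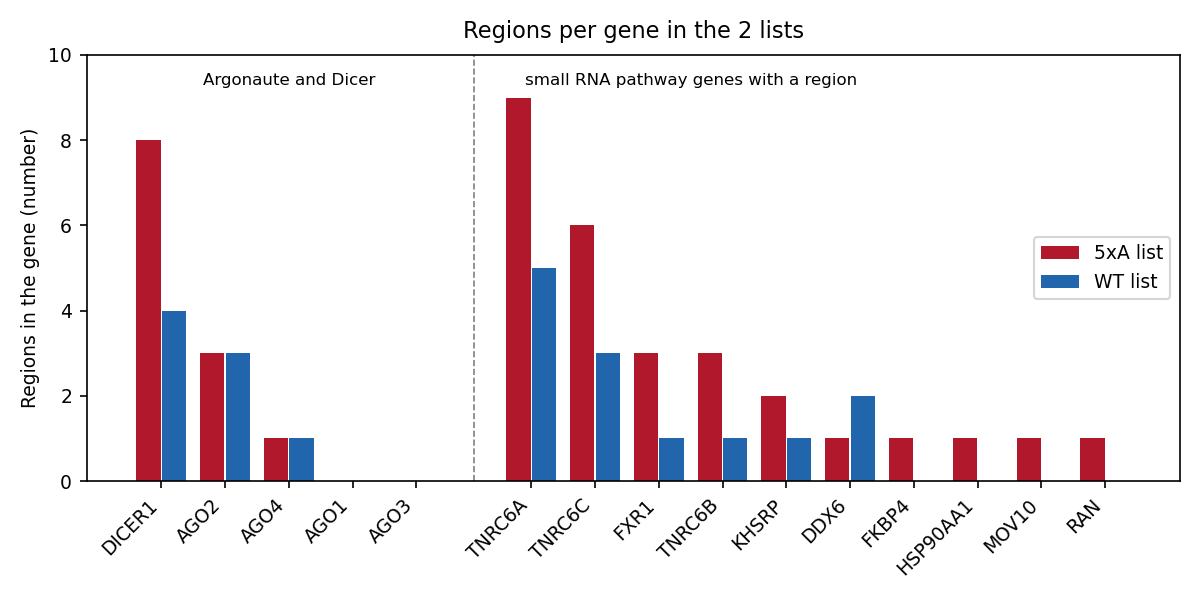
Number of regions per gene in the 5xA list (left bar) and the WT list (right bar), for the Argonaute and Dicer genes and for genes of the small RNA pathway list with a region. DICER1 has 8 and 4, AGO2 3 and 3, AGO4 1 and 1, and AGO1 and AGO3 have none.

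Across the 5 genes, 7 of 12 5xA regions overlapped a WT region, beside 32.3% of all 5xA regions (95% exact Clopper-Pearson interval 30.6 to 34.0), and 7 of 8 WT regions overlapped a 5xA region, beside 81.3% (78.9 to 83.4) of all WT regions. DICER1 alone gave 4 of the 7 shared regions in each list. All 12 and all 8 lay in genes with a region in both lists. The whole lists also cover 892 protein-coding genes with a region in the 5xA list only and 72 with one in the WT list only. The shares are thus taken over unlike sets of genes, and no excess is read from them. The interval treats regions as independent and covers counting only. The 5 genes held 1.5 times as many regions with 5xA as with WT and 1.49 times the covered bases, against 2.45 and 2.35 times over the whole lists. The whole-list ratios include the genes found in 1 list only, so here too the sets are unlike. Ratios over the 600 protein-coding genes in both lists were not computed. With 20 regions in all, most of them in DICER1, the ratios of the 5 genes move with a few regions.

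Regions of the 5 genes had a median width of 127.5 bases with 5xA and 158 bases with WT, against 104 bases (quartiles 78 and 153) and 114 bases (87 and 161) over the lists. Width went with sharing. With 5xA the medians were 143 bases for shared and 112 bases for unshared regions of the 5 genes, against 145 and 93 bases over the list. With WT they were 158 bases for shared regions and 110 bases for the 1 unshared region, against 121 and 91 bases. The 7 shared pairs were compared edge by edge. The 5xA region was the wider in 5 of 7, beside 66.8% of all 847 pairs of regions that met only each other. On the 5′ side the 5xA region reached beyond the WT region in 6 of 7 pairs, by 6 to 61 bases, the exception being the AGO2 pair nearest the end. On the 3′ side it reached beyond the WT region in 4 pairs and fell short in 3. The median 5′ extension was 13 bases in the 7 pairs and 4 bases (quartiles -2 and 25) in all pairs, and the median 3′ extension was 3 bases in both. Pairs of 1 gene share a transcript and a pair of lists, so these are descriptions of the regions.

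The regions of the 5 genes lay mostly in the last 5 kb. Of those with 5xA, 8 of 12 were in the last 5 kb of the gene, and of those with WT, 6 of 8 were, beside 78.8% and 80.5% of all regions in genes longer than 10 kb. With a window of 2 kb the counts were 3 of 12 with 5xA and 4 of 8 with WT, and no 2 kb share over all regions was computed. With a window of 10 kb they were 9 of 12 and 6 of 8. The WT share was thus the higher with the 5 kb and 2 kb windows but not with 10 kb, on few regions. Over all regions in genes longer than 10 kb, the median distance was 1747 bases with 5xA and 1640 bases with WT. Over 10 kb away lay 3 of 12 and 2 of 8, of which the DICER1 pair made up 2 in each list. The remaining far region was the AGO2 region found with 5xA only.

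**Figure D4:**
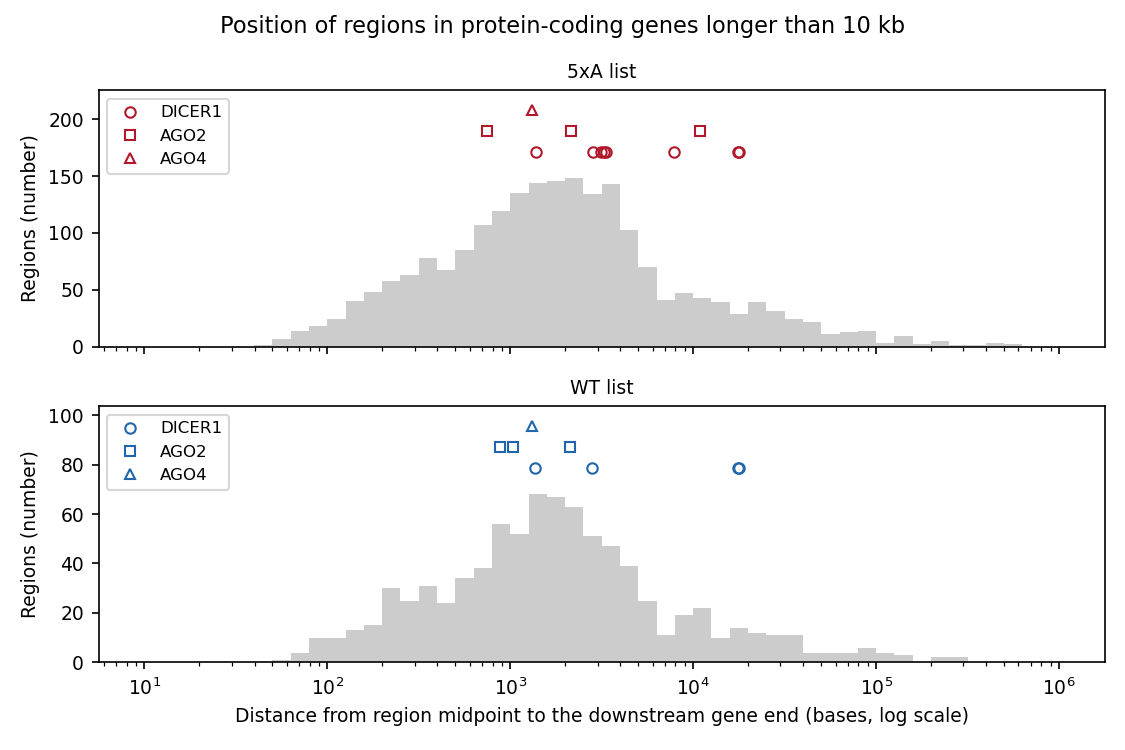
Histogram of the distance from region midpoint to downstream gene end (bases, log axis) for all regions in protein-coding genes longer than 10 kb, 5xA above and WT below, with open symbols for the regions of DICER1, AGO2 and AGO4. Most symbols lie over the main peak, and the DICER1 pair near 17.5 kb and the 5xA-only AGO2 region at 10.9 kb lie in its right flank.

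Other genes of the small RNA pathway were compared by a list of 37. Of these, 10 (27.0%) held a region with 5xA and 6 (16.2%) with WT, beside 7.44% and 3.35% of all protein-coding genes. All 6 were also bound with 5xA, as were 600 of the 672 protein-coding genes with a WT region, so nothing is read from this. The list was drawn up with earlier results on some of its members known, so these shares are not independent evidence.

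In the miRNA processing group, 2 of 17 genes (11.8%) held a region with 5xA and 1 (5.88%) with WT, beside 7.44% and 3.35% of all protein-coding genes. KHSRP, whose protein promotes processing of let-7 precursors, held 2 with 5xA and 1 with WT, and RAN, the GTPase that serves the exportin of miRNA precursors, held 1 with 5xA only. DROSHA and DGCR8, the nuclear processing complex, XPO5, the exportin itself, and TARBP2 and PRKRA, partners of Dicer, held 0. DICER1 held 8 and 4 regions, and DROSHA, the enzyme of the preceding cut, held 0, as did 92.2% of all protein-coding genes. Levels of these mRNAs were not measured here, so nothing is read from the difference. The PIWI clade, germline relatives of the Argonautes, held 0 regions in 4 genes.

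Among 15 Argonaute partners and loading factors, 8 held a region with 5xA and 5 with WT. The GW182 scaffold genes, whose proteins bind Argonaute and recruit deadenylases, led with TNRC6A (9 with 5xA and 5 with WT), TNRC6C (6 and 3) and TNRC6B (3 and 1). FXR1, an RNA-binding protein of the fragile X family, held 3 and 1. DDX6, the helicase of translational repression and decapping, held 1 and 2, and was the only gene of the list with fewer 5xA than WT regions. The chaperone gene HSP90AA1, the cochaperone gene FKBP4 and the helicase gene MOV10 held 1 each with 5xA only. The FKBP4 region also lay in the span of ITFG2-AS1. The regions of DICER1, AGO2 and AGO4 overlapped no other annotated gene. ZSWIM8, a ubiquitin ligase subunit that acts in Argonaute turnover, held 0.

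**Figure D5:**
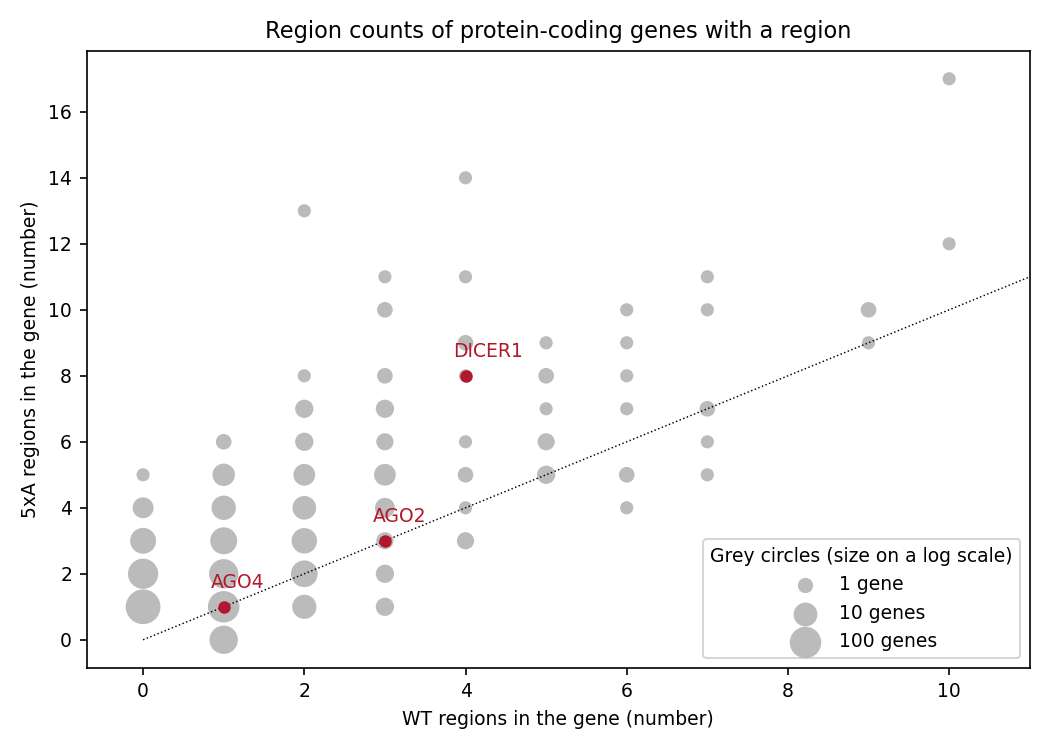
Regions per protein-coding gene in the 5xA list (vertical axis) against the WT list (horizontal axis), with grey circles sized by the number of genes on a log scale and a dotted line of equal counts. AGO4 (1 and 1) and AGO2 (3 and 3) lie on the line, and DICER1 (8 and 4) lies above it among other genes with 4 WT regions.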

How the data were processed

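The authors deposited 2 region lists in 6 columns, 1 for the 5xA IP and 1 for the WT IP, and the sample descriptions give 1 list for both replicates. Their deposited score is 0 throughout and was not used. Per the submitters' processing notes the build was hg38 and the tools included TopHat2 and cutadapt 1.9.1. Not given in the sources used here are the caller of the regions, any threshold, how replicates were merged and what the input and knockout libraries were used for. Start positions were raised by 1 for printing.

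Gene spans came from RefSeq, GRCh38.p14, whose chromosomes have hg38 coordinates. Strand came from the RefSeq promoter table for 4 of the 5 genes and for 79.0% of protein-coding genes. For AGO2 the known minus strand was used, and for other genes without an entry either strand counted. A region counted for every gene it overlapped on its strand. Distances run from the region midpoint to the downstream gene end. For the distance shares and medians over whole lists, the shortest of several genes longer than 10 kb was used. For the counts of genes with shared regions near and far from the end, a region counted for every such gene it overlapped. Overlaps were counted in Python 3.11.15, checked against bedtools 2.31.1 and tested on simulated data. Depth is unknown. The members, the lists and the rules were chosen with earlier results of these data known. Named were the 5 genes, every pathway list gene with a region, 11 miRNAs, and for DICER1 and AGO2 the 5 genes with the nearest counts. Alternatives changed joining, overlap, strand, width, gene assignment and end windows.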

Additional observations from a re-analysis of the deposited data

How the results depend on the processing

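Of 110 alternative values for 30 counts, base totals, widths and positions, 101 stayed within 1.5 times the reported value and 9 did not. A change of exactly 1.5 times counted as within. Joining took the WT regions of AGO2 from 3 to 2. The 2 kb window took the WT regions near the end from 6 to 4, and the 100-base minimum took the WT pathway genes from 6 to 4. Some alternatives could change nothing for the 5 genes. Their spans held 0 regions of the opposite strand, and their regions lay wholly inside the spans and overlapped no other annotated gene. Values for the 5 genes also contain those for DICER1, AGO2 and AGO4. The 101 are therefore not separate checks. With only regions of at least 100 bases, AGO4 held 0 regions, 0 shared regions and 0 covered bases in either list. With a reciprocal overlap of 50%, AGO2 held 1 shared region in the 5xA list and 1 in the WT list. With a 2 kb window, 3 5xA regions lay near the downstream gene end. The minimum width, the overlap rule and the window produce these changes by their construction. No paired analysis was possible because each list merges both replicates of a genotype, and for the same reason no replicate could be left out. The region scores are all 0, so a stricter score threshold could not be run, and the depth behind each region, which would limit every absence, is unknown. The width minimum, the strand and the removal of regions overlapping another gene were added for the pathway list after seeing the data.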
